A study of Homo sapiens with 4 samples.

Results

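The genes of the ATF4 and CHOP stress response were followed in SKOV3, a human ovarian cancer cell line, treated with 20(S)-Rg3, a saponin from ginseng. The set held 10 genes, taken by symbol from the deposited count table of 40205 genes, and all 10 were found and passed the low-count filter. They were ATF4, the factors ATF3, DDIT3 (CHOP) and CEBPB, the enzymes ASNS and CHAC1, and the regulators TRIB3, SESN2, DDIT4 and PPP1R15A. The tested cells were exposed to 20(S)-Rg3 at 80 µg/mL, with 24 h of exposure, and the others were labelled as control, with no vehicle named. Both groups were grown in RPMI medium with fetal bovine serum, and each had 2 libraries of total RNA depleted of ribosomal RNA. The labels call the RNA of each library pooled and do not state that the libraries came from separate cultures, so the p-values reflect how far these 4 libraries spread, and that spread may be technical.

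When the translation factor eIF2 is phosphorylated by a stress-sensing kinase, protein synthesis slows in general while the ATF4 mRNA is translated more. ATF4 is a basic leucine zipper (bZIP) transcription factor that pairs with C/EBP family partners and turns on genes of amino acid supply, redox balance and feedback control. CHOP, the product of DDIT3, is one of the factors induced downstream, and together with ATF4 it acts on genes such as TRIB3, CHAC1 and PPP1R15A. Because ATF4 is controlled largely through translation, read counts measure its mRNA and not the activity of its protein.

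The 250 bases upstream of a transcription start are shown for the 4 genes of the set in which a stress response motif was matched, and for DDIT3, on which the comparison below turns. Sequences are from RefSeq on GRCh38.p14, 5′ to 3′ on the strand of the gene, with the matched letters in capitals. In ATF3 (chr1:212565157-212565406, plus strand), ASNS (chr7:97872409-97872658, minus strand) and CHAC1 (chr15:40953221-40953470, plus strand) the capitals mark TGATGNAA, the core of the C/EBP-ATF response element, which in CHAC1 lies on the other strand. In PPP1R15A (chr19:48872171-48872420, plus strand) they mark TGACGTCA, the cyclic AMP response element. The DDIT3 stretch (chr12:57520515-57520764, minus strand) has none in capitals. Only exact matches were sought, and bases further upstream were not searched.
ATF3: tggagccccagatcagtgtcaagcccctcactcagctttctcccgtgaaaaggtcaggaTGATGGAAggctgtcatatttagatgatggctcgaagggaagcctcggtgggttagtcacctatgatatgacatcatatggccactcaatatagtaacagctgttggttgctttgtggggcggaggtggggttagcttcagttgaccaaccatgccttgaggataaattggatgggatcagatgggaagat
ASNS: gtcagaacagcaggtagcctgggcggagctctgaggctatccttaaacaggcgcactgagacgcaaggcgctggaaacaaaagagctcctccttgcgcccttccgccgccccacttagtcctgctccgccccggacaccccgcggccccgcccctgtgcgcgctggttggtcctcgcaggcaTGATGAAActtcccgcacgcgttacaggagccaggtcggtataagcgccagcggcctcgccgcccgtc
CHAC1: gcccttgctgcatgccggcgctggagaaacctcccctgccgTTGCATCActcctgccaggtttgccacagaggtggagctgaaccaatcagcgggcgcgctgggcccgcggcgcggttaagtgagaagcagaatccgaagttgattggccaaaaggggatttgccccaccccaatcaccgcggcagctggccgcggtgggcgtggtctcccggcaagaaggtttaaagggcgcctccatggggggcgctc
PPP1R15A: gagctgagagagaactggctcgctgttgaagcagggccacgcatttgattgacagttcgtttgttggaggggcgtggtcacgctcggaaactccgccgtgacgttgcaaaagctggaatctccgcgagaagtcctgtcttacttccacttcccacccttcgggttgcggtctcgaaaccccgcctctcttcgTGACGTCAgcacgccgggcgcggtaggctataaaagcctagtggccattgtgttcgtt
DDIT3: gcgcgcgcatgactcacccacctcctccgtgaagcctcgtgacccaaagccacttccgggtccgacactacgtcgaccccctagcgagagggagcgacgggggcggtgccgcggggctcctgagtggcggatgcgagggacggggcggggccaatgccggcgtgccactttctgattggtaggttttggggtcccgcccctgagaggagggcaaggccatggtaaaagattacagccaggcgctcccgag

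All 10 genes had at least 1 window of 300 bases in the RefSeq table, 250 before and 50 after a start, and 17 windows in all. TGATGNAA, searched on both strands, was present in 3 of the 10 genes and in 4.46% of all 27305 genes in the table. By window it was in 3 of 17, against 3.62% of all 35116 windows. ATF3 and ASNS had 2 windows each, and only the window shown held the match. TGACGTCA, which reads the same on both strands, was present in 1 of the 10 genes and in 2.25% of all genes. By window it was in 1 of 17, against 1.85% of all windows. The ER stress response element, sought on either strand, was in 0 of the 10 and in 0.0916% of all genes. The ASNS match began 68 bases before the start, that of ATF3 191 bases, that of CHAC1 209 bases and that of PPP1R15A 58 bases. A match describes the letters of the window, and binding was not measured.

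The libraries held 24571619 to 30132517 counts with Rg3 and 24482846 to 26731913 counts in controls. Replicates were less alike with Rg3, where the chi-square of counts per degree of freedom was 44.7, than in controls, where it was 9.26. Mitochondrially encoded RNA took 7.21% to 9.02% of counts with Rg3 and 8.43% to 9.42% in controls. Of 8 epithelial and SKOV3 markers, KRT7, KRT8 and KRT18 were at 1557 CPM or above in every library, while EPCAM and CD24 were at 0 in all 4 and KRT19 was at 0 in 3. ERBB2, which SKOV3 is known to carry amplified, was at 45.2 to 53.5 CPM with Rg3 and 48.1 to 50.6 CPM in controls and ranked 3178 of 16323 genes by mean CPM, and the identity of the line was not tested. Of 12 markers of blood, endothelial and fibroblast cells, summing to 19.1 to 22.5 CPM with Rg3 and 22.1 to 24.6 CPM in controls, CD3E was at 0 in all 4 libraries. PTPRC, LUM and COL3A1 were at 0 in all but control 2, and CDH5, an endothelial cadherin, was at 16.2 CPM in both Rg3 libraries and 17.9 and 19.5 CPM in controls.

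The question was whether the mRNAs of this response differ after exposure to Rg3. In bulk RNA, more mRNA per cell and a larger share of responding cells cannot be told apart. DDIT3 stood above the controls in both Rg3 libraries, at 1.77-fold. ATF4, ATF3 and ASNS lay above both controls by small amounts, and DDIT4 lay below both. CEBPB, CHAC1, TRIB3, SESN2 and PPP1R15A were high in Rg3 replicate 1 and lay among or near the controls in Rg3 replicate 2. In edgeR's quasi-likelihood test adjusted over all 16323 genes, 0 of the 10 genes were called higher and 0 lower, against 0.0306% of all genes called higher and 0% lower. At an unadjusted p under 0.05 there were 1 of the 10 higher (DDIT3) and 1 lower (DDIT4), and in all genes tested 1.83% were higher and 2.90% lower. DESeq2 called 1 of the 10 (DDIT3, higher, where it called 0.221% of all genes higher) and limma voom called 0 (0.0306% of all genes higher).

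**Figure D1:**
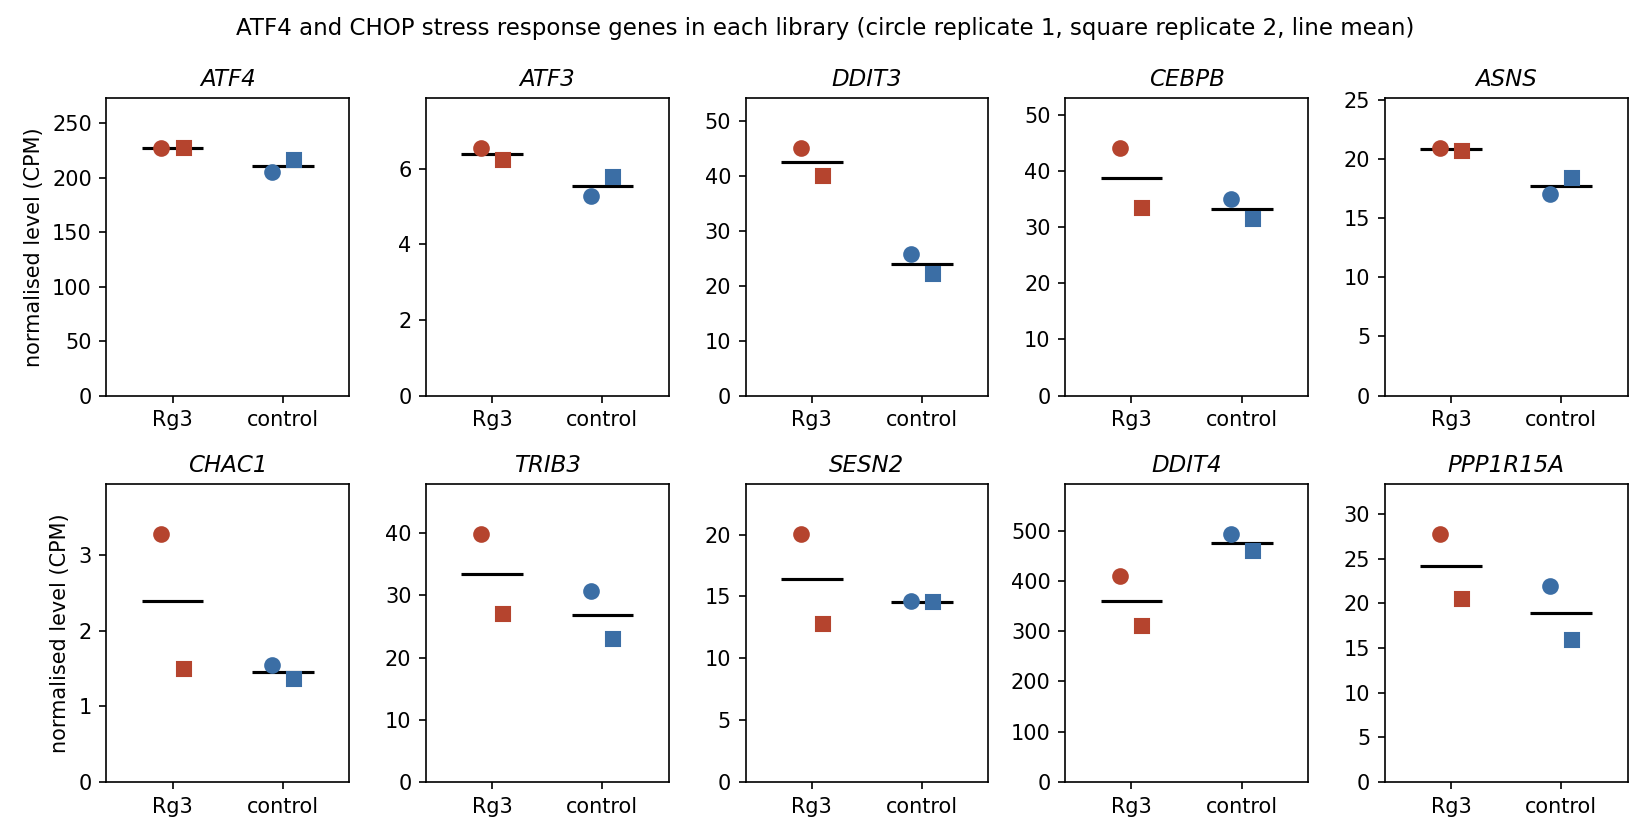
Normalised level (CPM, TMM-scaled, axis from 0) of each of the 10 genes in each library, with Rg3 left and control right; circles are replicate 1, squares replicate 2 and lines the group means. Both DDIT3 points with Rg3 (45.2 and 40.1 CPM) lie well above those of the controls (25.9 and 22.3 CPM), while for 5 genes the Rg3 points straddle or reach the controls.

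Levels are counts scaled to a common library size (CPM) after TMM, which corrects for composition, and fold changes are Rg3 over control. ATF4, the central factor, was at 228 and 228 CPM with Rg3 and at 206 and 216 CPM in controls. The Rg3 libraries were nearly equal and both lay above the controls, with a log2 fold change of 0.11 (SE 0.13, edgeR adjusted p = 0.999). The fold change was smaller than its standard error, and over the fits that each left out 1 library it ran from 0.085 to 0.15. The 4 pseudogenes ATF4P1 to ATF4P4 together had 3.65% and 3.04% as many counts as ATF4 with Rg3 and 4.56% and 4.71% in controls. The assignment of reads between ATF4 and its copies is uncertain, and the share of the copies was lower in both Rg3 libraries than in both controls.

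DDIT3, which encodes CHOP, had 1392 and 965 counts with Rg3 and 638 and 588 counts in controls. After scaling this was 45.2 and 40.1 CPM with Rg3 and 25.9 and 22.3 CPM in controls, or 42.6 ± 3.62 and 24.1 ± 2.58 CPM (mean ± SD, n = 2 each). The groups did not overlap, and the lowest of the 4 ratios of an Rg3 to a control library was 0.63 on the log2 scale and the highest 1.02. The log2 fold change was 0.82 (SE 0.15) with an unadjusted p of 8.68e-04, and the adjusted p over all genes was 0.363 in edgeR's quasi-likelihood test. The estimate was thus several standard errors above 0 and still did not pass over all genes. DDIT3 was called by DESeq2 (adjusted p = 0.0180) and by edgeR when no low-count filter was set (adjusted p = 8.96e-04, with 0.351% of all genes called higher). DDIT3 had a larger SE there (0.20 and 0.18) than with edgeR's filter (0.15), so these calls did not come from a smaller SE. It was also called when Rg3 replicate 1 was left out (adjusted p = 0.00694, with 2.53% of all genes called higher) and when Rg3 replicate 2 was (adjusted p = 0.00204, with 1.80%). With 1 Rg3 library left, the spread comes from the 2 controls alone, which were closer to each other than the Rg3 libraries, and the lone library is assumed to vary like them, so these calls do not carry the spread between Rg3 libraries. Without control 1 its adjusted p was 0.467, without control 2 it was 1, and with limma voom it was 0.416. The log2 fold change stayed between 0.72 and 0.95 in the fits that each left out 1 library.

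The DDIT3 row was read beside its neighbour, since its gene overlaps MARS1 in the RefSeq annotation. The strand setting of the authors' counting is not given in the sources used here. MARS, the methionyl-tRNA synthetase gene under its older symbol, was at 196 and 185 CPM with Rg3 and at 182 and 181 CPM in controls. Its log2 fold change was 0.07 (SE 0.13, edgeR adjusted p = 0.999), far below that of DDIT3. The MARS row is a total over its gene, at a higher level than DDIT3, so it cannot show reads within the overlap. Whether such reads had a part in the DDIT3 difference was not tested. The microRNA MIR616, which also overlaps DDIT3, had 6 and 10 counts with Rg3 and 4 and 1 counts in controls, and LOC128125814, which overlaps it too, was not analysed here.

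ATF3, a stress-induced bZIP factor that ATF4 and CHOP act upon, was at 6.56 and 6.23 CPM with Rg3 and at 5.28 and 5.79 CPM in controls. Both Rg3 libraries lay above both controls, by little, and the log2 fold change of 0.21 (SE 0.20) was about as large as its standard error. CEBPB, a C/EBP factor that can pair with ATF4, was at 44.1 and 33.3 CPM with Rg3 and at 34.9 and 31.4 CPM in controls. Here the groups overlapped, with Rg3 replicate 2 between the controls, and the log2 fold change of 0.23 (SE 0.17) was 0.011 when Rg3 replicate 1 was left out and 0.41 when Rg3 replicate 2 was. The RefSeq annotation places the antisense RNA CEBPB-AS1 over CEBPB, and it was not analysed here.

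ASNS, the asparagine synthetase and a much used reporter of amino acid stress, was at 20.9 and 20.6 CPM with Rg3 and at 17.0 and 18.4 CPM in controls. Its Rg3 libraries were nearly equal and above both controls, with a log2 fold change of 0.23 (SE 0.15, edgeR adjusted p = 0.999), and its listed pseudogenes had at most 1 count in any library. Of the genes that RefSeq places over ASNS, the pseudogene RPS3AP29 had at most 1 count in any library, and CZ1P-ASNS and SNRPCP9 were not analysed here. CHAC1, an enzyme that breaks down glutathione, was the gene with fewest reads in the set. It had 101 and 36 counts with Rg3 and 38 and 36 counts in controls, with exact 95% Poisson intervals, which cover counting error only, of 82.3 to 123 and 25.2 to 49.8 for Rg3 and 26.9 to 52.2 and 25.2 to 49.8 for the controls. Its elevation was therefore that of Rg3 replicate 1, and Rg3 replicate 2 could not be told from the controls at this depth. Leaving out Rg3 replicate 1 gave a log2 fold change of 0.046, and leaving out Rg3 replicate 2 gave 1.17, against 0.73 (SE 0.41) with all libraries.

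TRIB3, a pseudokinase that binds AKT and ATF4 and restrains the response, was at 39.9 and 26.9 CPM with Rg3 and at 30.7 and 23.0 CPM in controls. The groups overlapped and the controls also differed from each other, and the log2 fold change of 0.32 (SE 0.23) was 0.011 without Rg3 replicate 1, 0.57 without Rg3 replicate 2, 0.55 without control 1 and 0.13 without control 2. PPP1R15A, also called GADD34, recruits the phosphatase that removes the phosphate from eIF2 and so closes the feedback loop. It was at 27.8 and 20.5 CPM with Rg3 and at 21.9 and 15.9 CPM in controls, again overlapping. Its log2 fold change of 0.36 (SE 0.22) was 0.12 without Rg3 replicate 1, 0.56 without Rg3 replicate 2, 0.62 without control 1 and 0.14 without control 2.

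SESN2 and DDIT4 encode stress-induced proteins that hold back the growth kinase complex mTORC1, SESN2 as a leucine sensor and DDIT4, also called REDD1, through the TSC complex. SESN2 was at 20.1 and 12.7 CPM with Rg3 and at 14.6 and 14.6 CPM in controls. The controls coincided and the Rg3 libraries lay on either side of them, with a log2 fold change of 0.17 (SE 0.23). It was −0.19 when Rg3 replicate 1 was left out and 0.46 when Rg3 replicate 2 was. DDIT4 was at 410 and 311 CPM with Rg3 and at 494 and 459 CPM in controls. It was the 1 gene of the set with both Rg3 libraries below both controls, with a log2 fold change of −0.40 (SE 0.17, unadjusted p = 0.0459, edgeR adjusted p = 0.999). It was called lower without Rg3 replicate 1 (log2 fold change −0.61, adjusted p = 0.0115, where 2.69% of all genes were called lower), a fit whose spread again comes from the controls alone, and was at −0.22 without Rg3 replicate 2. The difference between SESN2 and DDIT4 in direction was not tested.

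**Figure D2:**
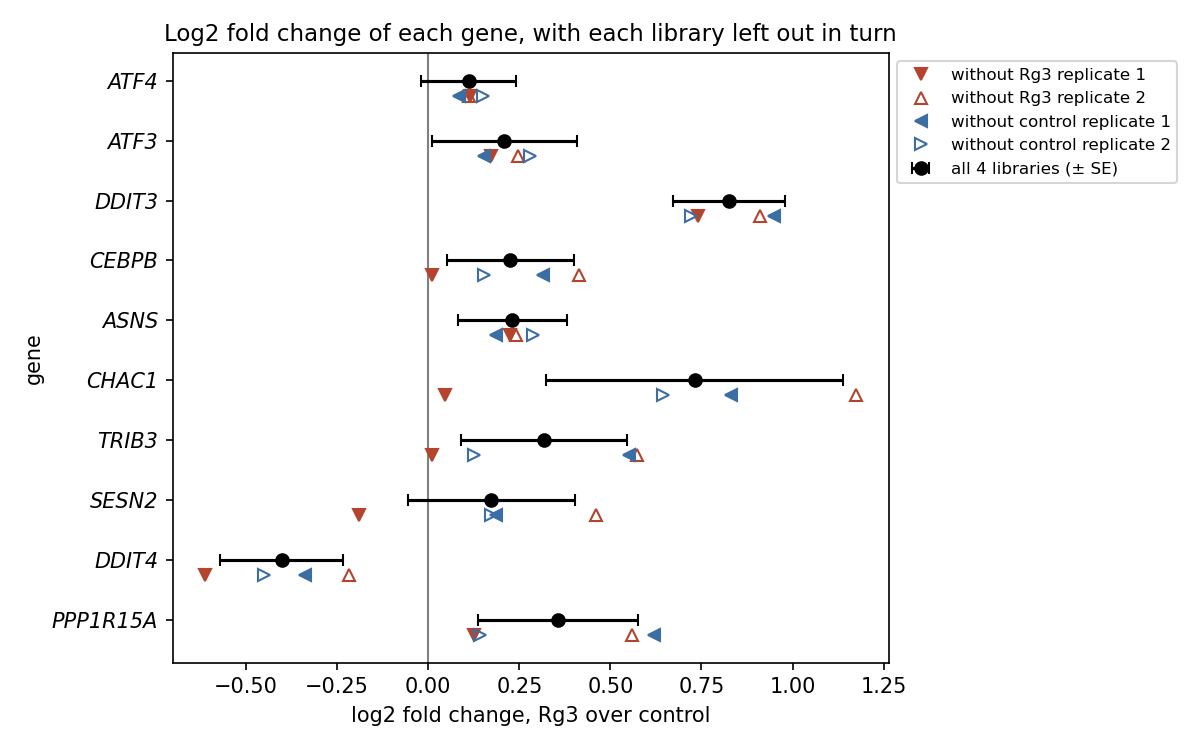
Log2 fold change (Rg3 over control) of each gene, with black circles and bars for the fit to all 4 libraries ± SE and triangles for the fits that each left out 1 library. The triangles of DDIT3 stay between 0.72 and 0.95, while those of CHAC1 run from 0.05 to 1.17 and those of SESN2 cross 0.

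The genes showed different patterns by how the Rg3 libraries compared, a description drawn after their values were seen. Both Rg3 libraries lay above both controls for ATF4, ATF3, DDIT3 and ASNS, which was 4 of 10 genes against 15.3% of all genes tested. Both lay below for DDIT4, 1 of 10 against 17.0% of all genes. Taken by itself, whatever the other library showed, Rg3 replicate 1 lay above both controls for 9 of the 10 genes, against 37.5% of all genes, and Rg3 replicate 2 for 4 of the 10, against 39.8% of all genes. For ATF4, ATF3, DDIT3 and ASNS the Rg3 libraries were 0.17 or less apart on the log2 scale. For the other genes Rg3 replicate 1 exceeded Rg3 replicate 2 by 0.40 (DDIT4) to 1.08 (CHAC1) on that scale. The controls differed about as much for PPP1R15A, by 0.46 against 0.44 between the Rg3 libraries. For TRIB3 they differed by 0.41, against 0.56 between the Rg3 libraries. For CEBPB, CHAC1, SESN2 and DDIT4 the controls were 0.17 or less apart.

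**Figure D3:**
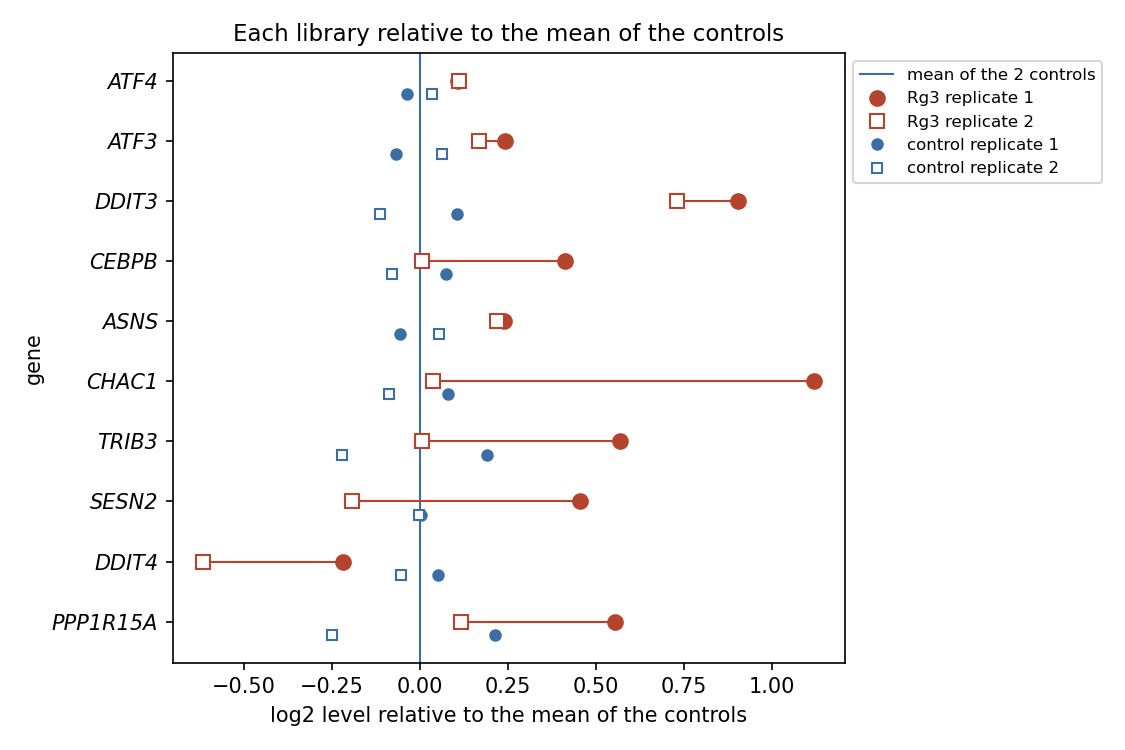
Log2 level of each library relative to the mean of the controls, with a pseudocount of 0.1 CPM; red marks are the Rg3 libraries, joined by a line, and blue marks the controls. The line is short for ATF4, ATF3, DDIT3 and ASNS, and for CHAC1 it reaches 1.12 in Rg3 replicate 1 and 0.04 in Rg3 replicate 2.

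Over the 10 genes, 9 had a log2 fold change above 0 and the median was 0.23, where 52.5% of all genes tested were above 0 with a median of 0.01. Relative to the controls the median of the 10 was 0.43 in Rg3 replicate 1 and 0.08 in Rg3 replicate 2. The median difference of Rg3 replicate 1 minus Rg3 replicate 2 was 0.40 for the 10 genes and −0.01 for all genes tested, and that of control 1 minus control 2 was 0.13 for the 10 genes. Without Rg3 replicate 1 the median was 0.08 with 8 genes above 0, and without Rg3 replicate 2 it was 0.44 with 9 above 0. The size of the median thus rested on Rg3 replicate 1, which also had the largest total count, and the part of depth in this was not tested.

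The genes around this set were read from lists of the same pathway, of which 0 members were called over all genes tested in edgeR (at most 2 per list had an unadjusted p under 0.05 in either direction) and 0 by DESeq2 or limma voom. Upstream, a list held the eIF2 kinases, eIF2 and eIF2B subunits and eIF2 phosphatase genes, and also GCN1L1, IMPACT, OMA1 and KIAA0141. It had 13 of 20 genes above 0, or 11 to 16 with 1 library left out. Its median log2 fold change was 0.05, or 0.11 without Rg3 replicate 1 and 0.015 without Rg3 replicate 2. EIF2AK3, the kinase PERK of the ER membrane, was at 19.1 and 22.5 CPM with Rg3 and at 18.6 and 18.0 CPM in controls. EIF2AK1, EIF2AK2 and EIF2AK4, the kinases that respond to haem shortage, double-stranded RNA and uncharged tRNA, had log2 fold changes of −0.09, 0.01 and −0.02, each of which turned sign in some fit without 1 library. EIF2B4 and EIF2B2, subunits of the exchange factor that phosphorylated eIF2 inhibits, were at 0.26 (SE 0.16) and 0.21 (SE 0.16) on the log2 fold change scale. With 1 library left out they ran from 0.12 to 0.40 and from 0.06 to 0.35, and EIF2AK3 ran from 0.06 to 0.30.

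Of the genes that supply amino acids under ATF4, 14 of 20 were above 0, with a median log2 fold change of 0.10 that was −0.05, with 9 above 0, without Rg3 replicate 1. PSPH, the phosphatase of the last step of serine synthesis, was at 16.2 and 19.3 CPM with Rg3 and at 13.1 and 13.8 CPM in controls (log2 fold change 0.40, SE 0.17). SLC7A11, the cystine importer, was at 184 and 138 CPM with Rg3 and at 135 and 101 CPM in controls (log2 fold change 0.45, SE 0.20). PYCR1, an enzyme of proline synthesis, was below both controls with a log2 fold change of −0.32 (SE 0.15). With 1 library left out these ran from 0.26 to 0.53 for PSPH, 0.23 to 0.69 for SLC7A11 and −0.46 to −0.19 for PYCR1. The cytosolic aminoacyl-tRNA synthetases, many of which ATF4 also acts on, had 16 of 20 above 0 and a median of 0.10, which was 0.03 without Rg3 replicate 2. WARS, GARS and RARS had log2 fold changes of 0.21, 0.14 and 0.18, and that of RARS was −0.11 without Rg3 replicate 2.

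Among 17 other tested targets of ATF4 or CHOP, 10 were above 0 and the median log2 fold change was 0.12, which went to 0.017 when Rg3 replicate 1 was left out and to −2.52e-04 when control 1 was. SQSTM1, the autophagy receptor p62, was at 2641 and 2042 CPM with Rg3 and at 1711 and 1475 CPM in controls (log2 fold change 0.56, SE 0.17, edgeR adjusted p = 0.921). TXNIP, an inhibitor of thioredoxin, was at 66.0 and 86.4 CPM with Rg3 and at 105 and 119 CPM in controls (log2 fold change −0.56, SE 0.17, edgeR adjusted p = 0.905). PMAIP1, the BH3-only protein NOXA, was at 5.78 and 4.98 CPM with Rg3 and at 3.61 and 4.01 CPM in controls. The log2 fold change of SQSTM1 was 0.36, and that of TXNIP −0.37, without Rg3 replicate 1. TNFRSF10B, the death receptor DR5 that CHOP is known to act on, was at 104 and 98.4 CPM with Rg3 and at 107 and 111 CPM in controls, and was named after its value was seen.

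Chaperones and other targets of ATF6 or XBP1, the ER arms that do not run through ATF4, had 15 of 18 above 0. Their median log2 fold change of 0.11 was 0.014, with 9 above 0, without Rg3 replicate 2. It was 0.016, with 12 above 0, without control 1, and was 0.19 without Rg3 replicate 1 and 0.21 without control 2. HSPA5, the ER chaperone BiP, was at 415 and 320 CPM with Rg3 and at 262 and 330 CPM in controls, and the groups overlapped (log2 fold change 0.31, but 0.12 without Rg3 replicate 1). DNAJB9, an ER co-chaperone, had a log2 fold change of 0.67 (SE 0.26) at 3.73 and 4.86 CPM with Rg3 and 2.35 and 3.03 CPM in controls, and DNAJB11 had 0.26 (SE 0.17), which ran from 0.06 (Rg3 replicate 2 left out) to 0.44 (Rg3 replicate 1 left out). Other bZIP factors, with 12 of 25 tested above 0, had a median of −0.02 (−0.12 without Rg3 replicate 1 and 0.05 without Rg3 replicate 2). FOSL2, an AP-1 subunit, was at 51.9 and 44.9 CPM with Rg3 and at 74.2 and 75.0 CPM in controls, a log2 fold change of −0.62 (SE 0.14, edgeR adjusted p = 0.566). JUN and FOS, also AP-1 subunits, were at −0.47 (SE 0.27) and −0.29 (SE 0.25) on the log2 fold change scale, and that of JUN ran from −0.81 (Rg3 replicate 1 left out) to −0.21 (Rg3 replicate 2 left out), while that of FOS was 0.16 without control 2.

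SESN2 and PMAIP1 are also known as targets of p53, so a list of other p53 targets was set beside them. Of its 15 genes 4 were above 0, and the median log2 fold change was −0.15 (−0.06 without control 2 and −0.21 without Rg3 replicate 2). CDKN1A, the cell cycle inhibitor p21, was at 48.4 and 46.1 CPM with Rg3 and at 62.2 and 66.4 CPM in controls (log2 fold change −0.44, SE 0.13, edgeR adjusted p = 0.905). DDB2 and FDXR, of DNA repair and mitochondrial electron transfer, were at −0.33 (SE 0.14) and −0.43 (SE 0.21) on that scale, FDXR at −0.21 without control 1.

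**Figure D4:**
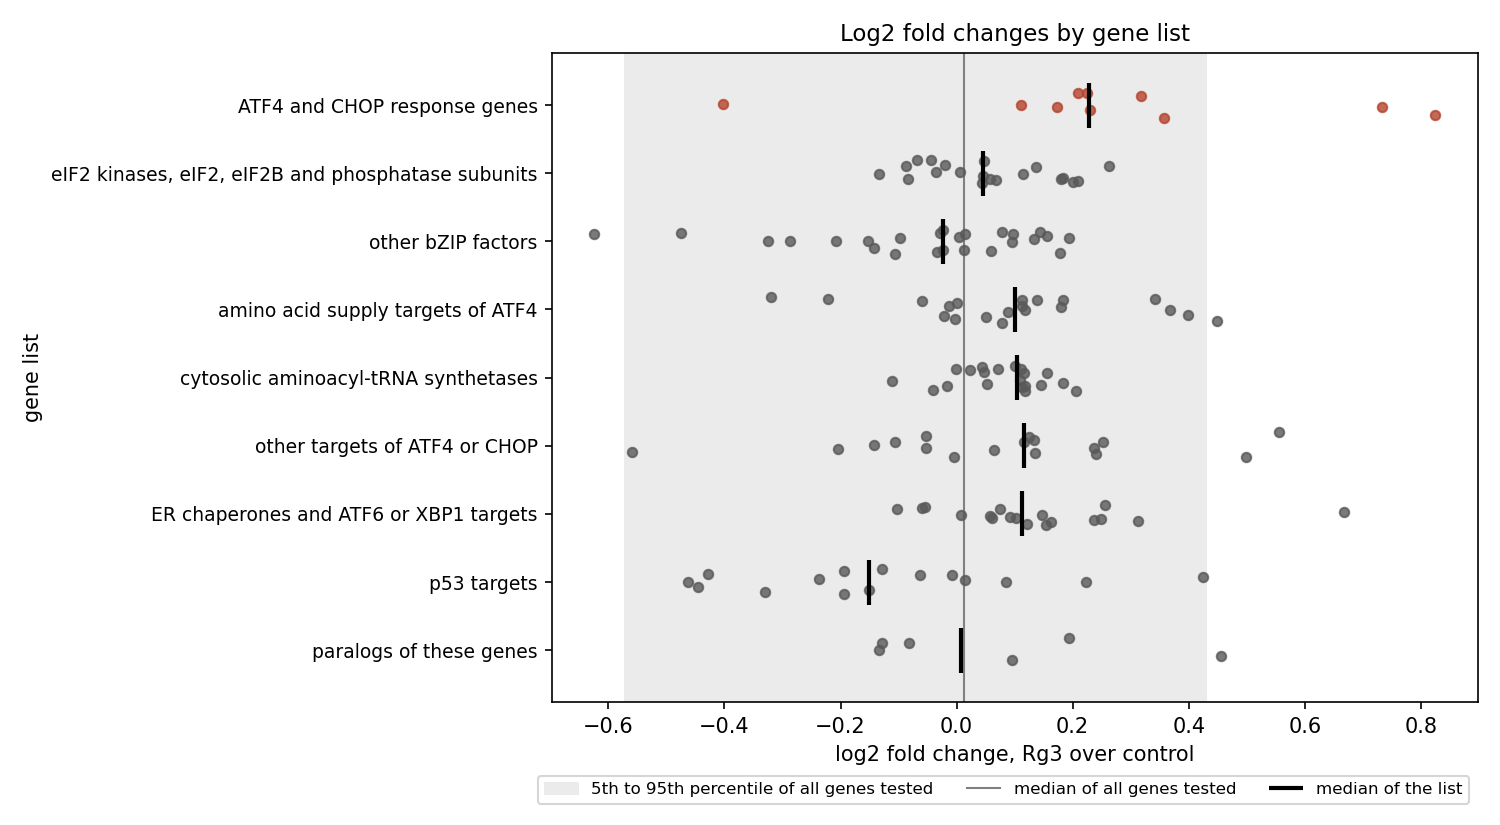
Log2 fold change (Rg3 over control) of every tested gene, 1 point each, by list, with a black bar at the median of the list; the grey band spans −0.57 to 0.43, the 5th to 95th percentile of all genes tested, and the grey line is their median. DDIT3 and CHAC1 (0.82 and 0.73) are the points of the top list beyond the band.

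The paralogs of the set were read to see how relatives of the same genes stood. SESN3, a sestrin like SESN2, was at 7.04 and 7.31 CPM with Rg3 and at 4.47 and 5.98 CPM in controls (log2 fold change 0.46, SE 0.22, and 0.27 without control 1), while SESN1 had −0.13 (SE 0.18). PPP1R15B, the constitutive counterpart of PPP1R15A, had −0.13 (SE 0.18), CHAC2 had 0.10 (SE 0.23), TRIB1 had −0.08 (SE 0.18) and ATF5 had 0.19 (SE 0.27). SESN1, PPP1R15B, CHAC2 and ATF5 each turned sign when 1 of the libraries was left out. TRIB2 and DDIT4L had too few counts to be tested, with TRIB2 at 0 in 3 libraries and DDIT4L at 0 in all 4.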

How the data were processed

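Raw read counts per gene symbol were deposited by the authors as whole numbers with no normalisation, with 1 column per library, and each column was matched to its sample by title. The genome build was GRCh37, per the submitters' processing notes; the aligner, counter, annotation and strand setting are not given in the sources used here. Of the genes, 14537 had no count in any library.

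The analysis used edgeR 4.0.16 under R 4.3.3: filterByExpr (minimum count 10, minimum total count 15), TMM scaling, and the quasi-likelihood test of treatment, with no other term, and Benjamini-Hochberg adjustment over 16323 genes (threshold 0.05). Standard errors were derived from the F statistic. DESeq2 1.42.0, limma 3.58.1 (voom), other scalings and filters and leaving out each library were alternatives. Differences between libraries used log2 of CPM plus 0.1. The genes, lists and rules were chosen with earlier results of these data known: all 10 genes of the set, their paralogs and the overlapping or copy genes found in the table were named (ASNS pseudogenes as a group), and the 3 genes with the smallest p in each other list. EIF2AK1, EIF2AK2, EIF2AK4 and TNFRSF10B were added after their values were seen.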

Additional observations from a re-analysis of the deposited data

How the results depend on the processing

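The direction of 9 of the 10 genes held in all 12 alternatives, and SESN2 turned to −0.19 in the fit without Rg3 replicate 1. Over the fits that left out 1 library, the log2 fold change of DDIT3 ran from 0.72 to 0.95. That of DDIT4 ran from −0.61 to −0.22 and that of SESN2 from −0.19 to 0.46. DDIT3 was called without a low-count filter (log2 fold change 0.83, SE 0.18) and with DESeq2 (0.83, SE 0.20). It was also called with the replicate number as a block (0.83, edgeR adjusted p = 0.00186). Each of these called 1 of the 10 genes. Of all genes tested, 0.351% were called higher without a filter and 0.221% with DESeq2, and 69 of 16323 genes with the block. Genes called higher and lower numbered 90 and 124 without a filter, 36 and 18 with DESeq2, 8 and 1 with small and mitochondrial RNA left out, 69 and 86 with the replicate block, and 5 and 2 with upper-quartile scaling, against 5 and 0. Leaving out 1 library gave 31 to 428 higher and 18 to 456 lower. The cause was not tested.

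The labels do not tie libraries of the same number together, and with only 2 pairs the numbers are not taken to pair them; the correlation across genes of the differences between replicates of the groups was 0.156. Among other named genes, leaving out 1 library turned the sign of some: log2 fold changes ran from −0.20 to 0.50 for ATF5, −0.31 to 0.037 for SESN1, −0.23 to 0.37 for CHAC2, −0.11 to 0.43 for RARS, −0.35 to 0.058 for PPP1R15B and −0.61 to 0.16 for FOS. Calls absent with all libraries appeared without Rg3 replicate 1 for FOSL2, CDKN1A, PSPH, PYCR1, DNAJB11 and RARS, and without Rg3 replicate 2 for FOSL2, SQSTM1, TXNIP and SLC7A11, in fits whose spread comes from the 2 controls alone. FOSL2 and SQSTM1 were also called without a low-count filter, and FOSL2 and TXNIP with the replicate block. CHAC1 had 36 to 38 counts in 3 libraries, fewer than any other of the 10 genes.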
